A study of Mus musculus with 24 samples.

Results

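Bone marrow from mice with BCR/ABLp190 leukaemia on a Pax5+/- background was compared with B220+ marrow B cells from wild-type mice. The leukaemia group held the 7 arrays titled Sca1-BCR/ABLp190+Pax5+/- bone marrow cells, and the control group the 5 arrays titled B220+ bone marrow B cells, 12 of the 24 mouse arrays of the series. Members were chosen by sample title alone, and each array came from a different mouse per the series design. The leukaemic mice carried the BCR/ABLp190 fusion gene under the Sca1 promoter, which is active in stem and progenitor cells, together with 1 intact and 1 disrupted copy of Pax5. The control mice carried neither change. Leukaemic marrow was described as tumour-bearing with no sort named, while the controls were B220+ cells, so a lower level of a gene can reflect fewer cells of a type or less RNA per cell, and these cannot be told apart. Strain, age and sex were not given in the labels. All mice were kept in a conventional facility where common pathogens circulate. A further 2 arrays of leukaemia with both Pax5 copies entered the fit only to steady the estimate of the spread.

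The labels were first set against markers. On the B220+ arrays the list of 13 B lineage markers had mean log2 levels from 12.39 to 12.53, and Ptprc, which encodes the CD45 protein whose B cell form is B220, read 11.76 to 11.95. On the leukaemia arrays the B lineage mean was 9.71 to 10.90 and Ptprc 11.23 to 12.13. Correlations over all genes, with 1 probe set each, were 0.988 to 0.996 between B220+ arrays, 0.941 to 0.983 between leukaemias and 0.921 to 0.948 between the groups. Leukaemia 7 stood apart in its markers of other marrow cells, with a macrophage mean of 7.39 against 8.60 to 9.87 on the other leukaemias and 6.51 to 6.68 on B220+ arrays. B220+ array 1 stood apart in neutrophil markers, with a mean of 10.03 against 7.06 to 8.68 on the other B220+ arrays. By Xist, all 5 B220+ arrays and leukaemias 2, 3 and 5 read as female and leukaemias 1, 4, 6 and 7 as male, so sex differed between the groups. Leukaemia 1 had a mean of 7.09 over 4 Y-linked genes, against 8.71 to 9.32 on the other male leukaemias. Where a count of called genes moved most with sex as a covariate, or without leukaemia 7 and B220+ array 1 together, that count is given beside it.

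PAX5 is a transcription factor that commits progenitors to the B lineage. It switches on genes of the antigen receptor and its signalling, and holds down genes of other lineages. Loss of 1 copy is a recurrent lesion in B cell precursor leukaemia. The BCR-ABL fusion protein is a tyrosine kinase that is always active, and it drives the RAS-ERK, PI3K and JAK-STAT5 routes that cytokine receptors and the pre-B cell receptor otherwise control. Cells between the pro-B and pre-B stages alternate between division, driven by interleukin-7 and D cyclins, and recombination of antibody genes, carried out by the RAG proteins in cells that have stopped dividing.

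The promoters of 5 genes are shown because they belong to genes the results turn on, namely a cytokine feedback gene, a pair of mitosis genes and a pair of replication genes. Each window runs from 250 bases before to 50 bases after the gene start, read 5′ to 3′ on the gene's strand, from RefSeq on build GRCm38.p6. They had the smallest adjusted p in their lists among members whose window held the motif letters, which are in capitals. Both strands were searched. Cish encodes a feedback inhibitor of cytokine signalling, and its window (chr9:107296409-107296708, plus strand) held 2 matches to TTCNNNGAA, the letters to which STAT factors bind.
Cish: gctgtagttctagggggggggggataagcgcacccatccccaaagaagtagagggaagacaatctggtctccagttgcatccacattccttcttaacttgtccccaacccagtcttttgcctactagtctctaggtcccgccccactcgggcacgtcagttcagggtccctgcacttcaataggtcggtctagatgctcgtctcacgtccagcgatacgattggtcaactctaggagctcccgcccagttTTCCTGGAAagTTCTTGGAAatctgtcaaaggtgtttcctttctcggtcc
Bub1b encodes a spindle checkpoint kinase (chr2:118597961-118598260, plus strand) and Cenpf a kinetochore protein (chr1:189688037-189688336, minus strand). Each window held 1 match to TTTGAA, the cell cycle homology letters read by the complex that times mitotic genes.
Bub1b: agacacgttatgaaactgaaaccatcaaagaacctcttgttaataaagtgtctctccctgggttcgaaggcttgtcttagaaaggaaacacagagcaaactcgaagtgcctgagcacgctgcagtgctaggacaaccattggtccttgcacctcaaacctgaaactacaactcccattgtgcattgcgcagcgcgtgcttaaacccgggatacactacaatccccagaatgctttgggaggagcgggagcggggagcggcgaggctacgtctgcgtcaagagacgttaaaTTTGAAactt
Cenpf: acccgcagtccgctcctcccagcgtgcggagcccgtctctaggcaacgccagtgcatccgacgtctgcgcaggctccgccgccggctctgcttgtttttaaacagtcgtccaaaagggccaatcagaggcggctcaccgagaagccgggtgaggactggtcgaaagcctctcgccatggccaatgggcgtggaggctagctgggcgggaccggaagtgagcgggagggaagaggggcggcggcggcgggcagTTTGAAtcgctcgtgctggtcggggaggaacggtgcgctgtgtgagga
Mcm3 (chr1:20820263-20820562, minus strand) and Mcm6 (chr1:128359656-128359955, minus strand) encode subunits of the replicative helicase. Capitals there mark the E2F letters TTTCCCGC, TTTGGCGC or TTTCGCGC, with 2 matches in Mcm3 and 3 in Mcm6, of which 2 overlap.
Mcm3: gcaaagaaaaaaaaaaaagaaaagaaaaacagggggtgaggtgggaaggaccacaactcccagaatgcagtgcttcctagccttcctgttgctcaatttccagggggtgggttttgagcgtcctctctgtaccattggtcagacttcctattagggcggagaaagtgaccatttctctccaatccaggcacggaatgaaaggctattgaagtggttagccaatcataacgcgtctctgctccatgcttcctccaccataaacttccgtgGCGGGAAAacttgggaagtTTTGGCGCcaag
Mcm6: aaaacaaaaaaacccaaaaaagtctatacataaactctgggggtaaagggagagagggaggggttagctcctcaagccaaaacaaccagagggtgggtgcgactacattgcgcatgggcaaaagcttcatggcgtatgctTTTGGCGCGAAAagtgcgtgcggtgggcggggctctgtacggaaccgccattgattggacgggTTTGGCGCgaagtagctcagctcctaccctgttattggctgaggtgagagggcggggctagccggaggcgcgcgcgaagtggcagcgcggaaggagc

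The share of windows with these letters differed between the lists. TTTGAA was found in 19 of 26 mitosis promoters (73.1%) and in 17.9% of all 32851 promoters in the RefSeq table, and CCAAT, the letters of the NF-Y factor, in 69.2% against 37.4%. The E2F letters were found in 13 of 31 replication promoters (41.9%) against 1.84% of all promoters. TTCNNNGAA was found in 3 of 22 promoters of the STAT5 list (13.6%) against 8.3% of all. These shares describe the windows and were not tested.

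By limma with Benjamini-Hochberg adjustment over all 19938 genes, 6336 genes (31.8%) differed at an adjusted p below 0.05. Of these, 2569 (12.9% of genes tested) were higher in leukaemia and 3767 (18.9%) were lower. Among calls of at least 1 log2 unit the balance was the other way, with 959 higher (4.81%) and 559 lower (2.8%). Many lower calls were small and at dim genes: 1098 of them (29.1%) had both group means below a log2 level of 7, with a median change of -0.21. The share of higher calls depended on the scaling, from 40.5% as deposited to 16.4% after median centring and 53.1% after cyclic loess. Over all genes the median change was -0.06, and -0.20 once each array was centred on its own median, the shift against which larger changes stand. In 3820 of the called genes (60.3%) no leukaemia array overlapped any B220+ array, and over all genes tested 8.65% had every leukaemia above every B220+ array and 11.4% had every leukaemia below. Leukaemias varied more than B220+ cells, with a larger SD in 73.0% of genes. Counts called in the gene lists that follow are to be read against the shares over all genes, 12.9% higher and 18.9% lower. In these lists, a direction with 0 calls also had 0 genes at an unadjusted limma p below 0.05, except replication (2 lower), V(D)J recombination (1 higher), and neutrophil and erythroid markers (2 higher each).

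**Figure D1:**
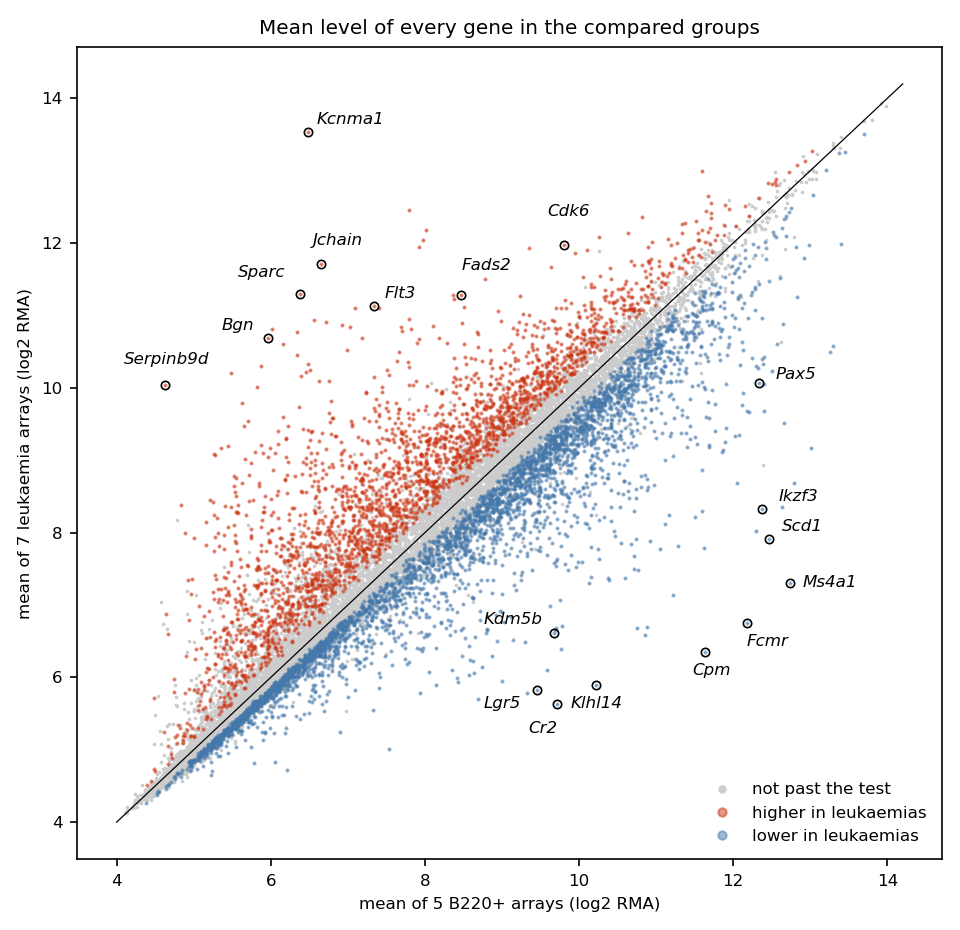
Each point is 1 gene, with its mean log2 level over 5 B220+ arrays on the x axis and over 7 leukaemia arrays on the y axis; red and blue points passed limma, grey points did not, and the line marks equal levels. Kcnma1 lies farthest above the line (6.49 against 13.53), and Ms4a1, Fcmr and Cpm lie farthest below it, while a dense band of blue points below a level of 7 sits close to the line.

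Kcnma1, a large-conductance potassium channel opened by calcium and voltage, showed the largest rise. It read 6.79, 6.64, 6.09, 6.47 and 6.44 on B220+ arrays 1 to 5, and from 12.94 to 13.78 with a median of 13.62 on the leukaemias. Every leukaemia was far above every B220+ array, a change of 7.05 ± 0.27 (SE) or 132-fold (limma adjusted p = 5.67e-09). The largest rises and falls named here were picked from called genes without overlap, so such gaps are no further evidence. Another Kcnma1 probe set changed by 0.06, so the rise rests on 1 probe set. The 4 arrays labelled as wild-type pro-B and pre-B cells, for which the series design names 3 mice and which entered no test here, had a mean of 11.51 on the first.

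Other genes changed by nearly the same amount in every leukaemia. Frmd4b, a scaffold protein gene, read 6.44, 6.45, 6.31, 6.62 and 6.47 in B220+ cells and 10.04 to 10.65 (median 10.09) in leukaemias, a change of 3.76 ± 0.12 (adjusted p = 8.31e-10). Atp8b4, a phospholipid flippase gene, rose by 3.77 ± 0.17, the semaphorin gene Sema6d by 4.20 ± 0.21, the Rac regulator Chn2 by 3.35 ± 0.18 and the membrane protein gene Tmem176a by 3.95 ± 0.22. None of these 5 genes had a leukaemia within the B220+ range. Among the falls, Lgr5, known as a receptor for R-spondins that amplifies Wnt signals, read 9.41, 9.34, 9.35, 9.56 and 9.61 in B220+ cells and 5.64 to 5.99 (median 5.85) in leukaemias. Lgr5 fell by 3.63 ± 0.07 on the log2 scale (adjusted p = 8.34e-12). Klhl14, an adaptor of a ubiquitin ligase, was at 5.78 to 6.07 on all 7 leukaemias against 9.88 to 10.35 in B220+ cells. Klhl14 fell by 4.34 ± 0.10 (adjusted p = 5.07e-11). Polm, a DNA polymerase that fills gaps in end joining of antibody genes, fell by 4.27 ± 0.16, from 10.65 to 11.03 on B220+ arrays to 6.23 to 7.00 on leukaemias. Lrmp, an endoplasmic reticulum protein gene of lymphocytes, fell by 2.27 ± 0.06, and the kinase gene Srpk3 (-2.57 ± 0.08) and Nfkbid (-3.03 ± 0.12), an atypical IκB, also fell. In each of these 6 falls all leukaemias lay below all B220+ arrays. Genes in this paragraph were named for a small adjusted p or a large non-overlapping change, so gaps follow in part from that choice.

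Transcription factors of the B lineage were broadly lower, and the depth of the fall differed from factor to factor. Of 33 measured factors 21 fell, 1 rose and 11 did not pass limma, with a median of -1.46 against -0.06 for all genes. Pax5 read 12.24, 12.44, 12.42, 12.20 and 12.33 in B220+ cells and 8.37 to 12.06 (median 10.30) in leukaemias, a change of -2.26 ± 0.53 (adjusted p = 0.0063). The ranges did not overlap, but leukaemia 7 was only just below the lowest B220+ array. The labels do not say which Pax5 exons were disrupted, so the probe set does not check the genotype. Ebf1, the factor that acts with PAX5 in early B cells, read 12.42, 12.51, 12.53, 12.51 and 12.59 against 8.37 to 11.72 (median 10.25), a change of -2.27 ± 0.45 (adjusted p = 0.00222). Ebf1 was lowest on leukaemia 3 and Pax5 on leukaemias 1 and 5, so the arrays with least of each factor differed.

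Ikzf3, which encodes AIOLOS and restrains the pre-B receptor and cell division, fell most among these factors. It read 12.24, 12.44, 12.46, 12.29 and 12.43 in B220+ cells and 7.53 to 8.80 (median 8.53) in leukaemias, a change of -4.05 ± 0.25 (adjusted p = 3.52e-07). Every leukaemia was more than 3 log2 units below every B220+ array. Its relative Ikzf1 (IKAROS) changed by -0.70 ± 0.15, and Ikzf2 (HELIOS) by 0.24, which did not pass. Tcf3, which encodes the E2A proteins, fell by 1.96 ± 0.14, and so did Ets1 (-1.64 ± 0.12) and the quiescence factor Klf2 (-2.52 ± 0.17). Bach2, a repressor that guards against plasma cell fate, fell by 3.37 ± 0.33. Foxo1, which switches on the RAG genes, fell by 2.17 ± 0.24. Id2, an inhibitor of E proteins, was the 1 factor that rose (1.83 ± 0.30, adjusted p = 0.000503). It read 10.69, 10.03, 10.37, 10.49 and 9.74 in B220+ cells and 10.86 to 12.69 (median 12.13) in leukaemias, with no overlap. Spi1 (-0.13), Runx1 (-0.21), Erg (0.37) and Mef2c (-0.11) were among those that did not pass.

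PAX5-activated genes, a list of direct or reported PAX5 targets, fell in 19 of 23 members, with 0 rising and a median of -2.73. This count repeats a pattern already known in these data and is no independent evidence of direction. Within it the size ran from Prkd2 (-0.93), a signalling kinase, to Cd72 (-4.30), an inhibitory co-receptor. Cr2, the complement receptor of mature B cells, read 8.99, 10.27, 9.85, 9.92 and 9.56 against 5.29 to 6.47 (median 5.45), a change of -4.09 ± 0.25 (adjusted p = 3.21e-07). Cr2 had a mean of 5.53 on wild-type pro-B and pre-B arrays. Bcar3, an adaptor protein gene, fell by 3.07, and Id3 (-2.16), an inhibitor of E proteins, fell too. Ciita, the activator of MHC class II genes, had -0.95 ± 0.46 (adjusted p = 0.126) and did not pass, with Irf8 (-0.56), Tcf4 (0.32) and Slamf1 (-0.27). The mean of the PAX5-activated list was 8.57 in these leukaemias and 10.93 in B220+ cells. On the 2 leukaemia arrays with both Pax5 copies it was 8.01, and the part of the disrupted copy was not tested. B lineage markers in all, the list named above, fell in 12 of 13 members, with Ptprc (-0.23 ± 0.16, adjusted p = 0.292) the exception.

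Among 15 measured genes of the pre-B receptor and V(D)J recombination 6 fell and 0 rose. Rag1, the recombinase, read 11.02, 11.38, 11.32, 11.27 and 11.12 in B220+ cells and 5.56 to 9.50 (median 6.04) in leukaemias, a change of -4.08 ± 0.73 (adjusted p = 0.00103). Its partner Rag2 read 8.83 to 9.23 against 4.88 to 7.84 and fell by 3.05 ± 0.54. Leukaemias 2, 5 and 6 kept more of both genes than the other 4. Lig4, the ligase that seals the joined ends, fell by 2.61, and the end-joining factor Nhej1 fell by 0.60.

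Igll1, the surrogate light chain gene λ5, split the leukaemias. It read 12.27, 12.56, 12.49, 12.83 and 12.92 in B220+ cells, and 9.82, 12.78, 7.96, 9.53, 12.96, 11.79 and 9.53 on leukaemias 1 to 7. Leukaemias 2 and 5 lay within or above the B220+ range and the rest below it, and the change of -1.99 ± 0.89 did not pass (adjusted p = 0.105). Dntt, the terminal transferase that adds bases at joints, showed the same arrays on top, with 10.39 and 10.23 on leukaemias 2 and 5 and 5.63 to 8.58 on the others (change -1.65 ± 1.12, adjusted p = 0.27). Vpreb3 fell by 3.85 ± 0.84, with 11.29, 11.03 and 11.66 on leukaemias 2, 5 and 6 and 7.38 to 8.03 on the rest, against 12.86 to 13.15 in B220+ cells. Vpreb1 (-0.48) and Vpreb2 (0.02) did not pass.

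Surface genes of mature B cells were much lower. Of 30 measured 20 fell and 1 rose, with a median of -1.91. Ms4a1, which encodes CD20, read 12.65, 12.78, 12.80, 12.78 and 12.69 in B220+ cells and 5.70 to 8.82 (median 7.27) in leukaemias, a change of -5.43 ± 0.58 or 43.2-fold (adjusted p = 2.5e-05). Fcmr, the receptor for IgM, read 12.09, 12.19, 12.27, 12.23 and 12.10 against 5.90 to 8.76 (median 6.39), a change of -5.43 ± 0.41 (adjusted p = 1.58e-06). Leukaemias lay at least 3 log2 units below B220+ cells for both. The Fc receptor-like gene Fcrl1 (-2.40), Siglecg (-3.29), an inhibitory lectin of B cells, and S1pr1 (-2.82 ± 0.32), the sphingosine receptor used to leave the marrow, fell. Cd72 read 12.47 to 12.78 in B220+ cells and fell by 4.30 ± 0.76 to a wide range of 6.36 to 10.40, high on leukaemias 2, 5 and 6. Fcer2a (CD23) fell by 3.83 ± 0.77, and its mean on wild-type pro-B and pre-B arrays was 6.13. Genes of MHC class II did not pass: H2-Ab1 had -1.07 ± 0.48 (adjusted p = 0.105), H2-Aa -0.75, H2-Eb1 -0.85 and the invariant chain Cd74 -0.70 ± 0.29 (adjusted p = 0.0838). For H2-Ab1, leukaemia 6 (13.14) was above every B220+ array and leukaemia 1 (10.12) was lowest.

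Several of the largest falls lay outside the receptor genes. Cpm, a membrane carboxypeptidase, read 11.53, 11.81, 11.62, 11.53 and 11.68 in B220+ cells and 5.37 to 7.23 (median 6.33) in leukaemias, a change of -5.28 ± 0.27 (adjusted p = 8.7e-08). Fcrla, an intracellular Fc receptor-like protein of B cells, fell by 4.28 ± 0.43. Reln, the secreted glycoprotein reelin, fell by 4.18 ± 0.36 (10.62 to 11.04 against 6.14 to 7.59). Niban3 fell by 4.11 ± 0.49, from 12.71, 12.65, 12.99, 12.66 and 12.96. It was at 8.11 to 8.46 on 6 leukaemias and at 11.31 on leukaemia 5.

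Signalling genes downstream of the B cell receptor were lower in a graded way. Of 25 measured 14 fell and 2 rose, with a median of -0.69. Syk, the kinase that relays the receptor signal, read 11.78 to 12 (median 11.93) on the B220+ arrays against 9.78 to 10.29 (median 10.17), a change of -1.84 ± 0.12 (adjusted p = 4.8e-07). Btk was even more uniform, at 9.56 to 9.71 in leukaemias and 10.41 to 10.57 in B220+ cells, and fell by 0.89 ± 0.07. Bank1 (-1.99) and Pik3ap1 (-1.60), adaptors that link the receptor to PI3K, fell. The adaptor Blnk fell by 2.73 ± 0.62 and divided the leukaemias, with 6.86, 7.57 and 8.52 on leukaemias 7, 4 and 1 and 9.98 to 10.65 on the other 4. Cd79a, a signalling chain of the receptor itself, fell by 2.76 ± 0.47, and its partner Cd79b fell by 1.41 ± 0.21. The Src family kinase Fyn (1.18 ± 0.16) and the phosphatase Ptpn22 (1.82 ± 0.28), both shared with T cells, rose. Plcg2 (0.16) and Pik3cd (-0.14) did not pass.

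Genes that mark early stages did not all follow the mature ones. Of 18 measured 7 rose and 7 fell, and with sex as a covariate 6 rose and 3 fell. Flt3, the cytokine receptor of lymphoid progenitors that PAX5 represses, read 7.40, 6.74, 6.94, 8.56 and 7.07 in B220+ cells and 10.33 to 11.52 (median 11.24) in leukaemias, a rise of 3.79 ± 0.72 (adjusted p = 0.00164). Kit, the stem cell factor receptor, read 6.57, 6.84, 6.69, 6.65 and 7.04 against 8.33 to 10.88 (median 9.85) and rose by 2.89 ± 0.43 (adjusted p = 0.000292). Both were above all B220+ arrays on all 7 leukaemias. Spn, the sialomucin CD43 of pro-B cells, rose by 1.24. Enpep, the BP-1 antigen of late pro-B and pre-B cells, fell by 2.25, and the adhesion gene Cd2 fell by 3.45. Il7r, the interleukin-7 receptor, read 12.20, 12.06, 12.17, 12.13 and 12.25 against 10.92 to 12.97 (median 12.23), with leukaemias on both sides, and did not pass (-0.12 ± 0.44, adjusted p = 0.847). The list median was -0.31, and 0.35 with sex as a covariate.

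PAX5-repressed genes rose in 10 of 20 members and fell in 1. Among them are genes also expressed by macrophages and T cells, whose part in the rises was not tested. Emb, the adhesion protein embigin, read 9.04, 8.12, 8.68, 8.64 and 8.06 in B220+ cells and 10.25 to 12.03 (median 11.28) in leukaemias, a rise of 2.61 ± 0.31 (adjusted p = 4.73e-05). Csf1r, the macrophage growth factor receptor, rose by 3.75 ± 0.41, from 6.25 to 6.78 in B220+ cells. Csf1r was highest on leukaemia 7 (12.25), where the macrophage list was lowest (7.39), and at 9.24 to 10.75 on the others. Gja1, a connexin, rose by 2.38 ± 0.52. Notch1 (0.67 ± 0.37), Ccr2 (1.83 ± 0.69), Cd28 (1.06) and Lmo2 (0.08) did not pass. The list mean was 9.92 in these leukaemias, 8.50 in B220+ cells and 9.62 on the 2 leukaemia arrays with both Pax5 copies.

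Jchain, the joining chain of secreted IgM and IgA, rose, while most plasma cell genes fell or did not pass. It read 6.61, 6.12, 6.52, 6.88 and 7.12 in B220+ cells and 10.47 to 12.74 (median 11.90) in leukaemias, a rise of 5.06 ± 0.41 or 33.4-fold (adjusted p = 2.61e-06). Of 12 measured plasma cell genes 2 rose, Jchain and Xbp1 (0.37), and 5 fell, and with sex as a covariate 3 fell. The Xbp1 call was lost without B220+ array 1, 2 or 3 (adjusted p = 0.0664, 0.0566 and 0.0607) and with each array centred on its median (0.135). Sdc1, the surface marker CD138, fell by 1.53 ± 0.18 with no overlap, and Irf4 fell by 2.73 ± 0.33. Prdm1, the master factor BLIMP1, had -0.15 ± 0.21 (adjusted p = 0.591), and Mzb1 (0.09) and Derl3 (0.31) did not pass.

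**Figure D2:**
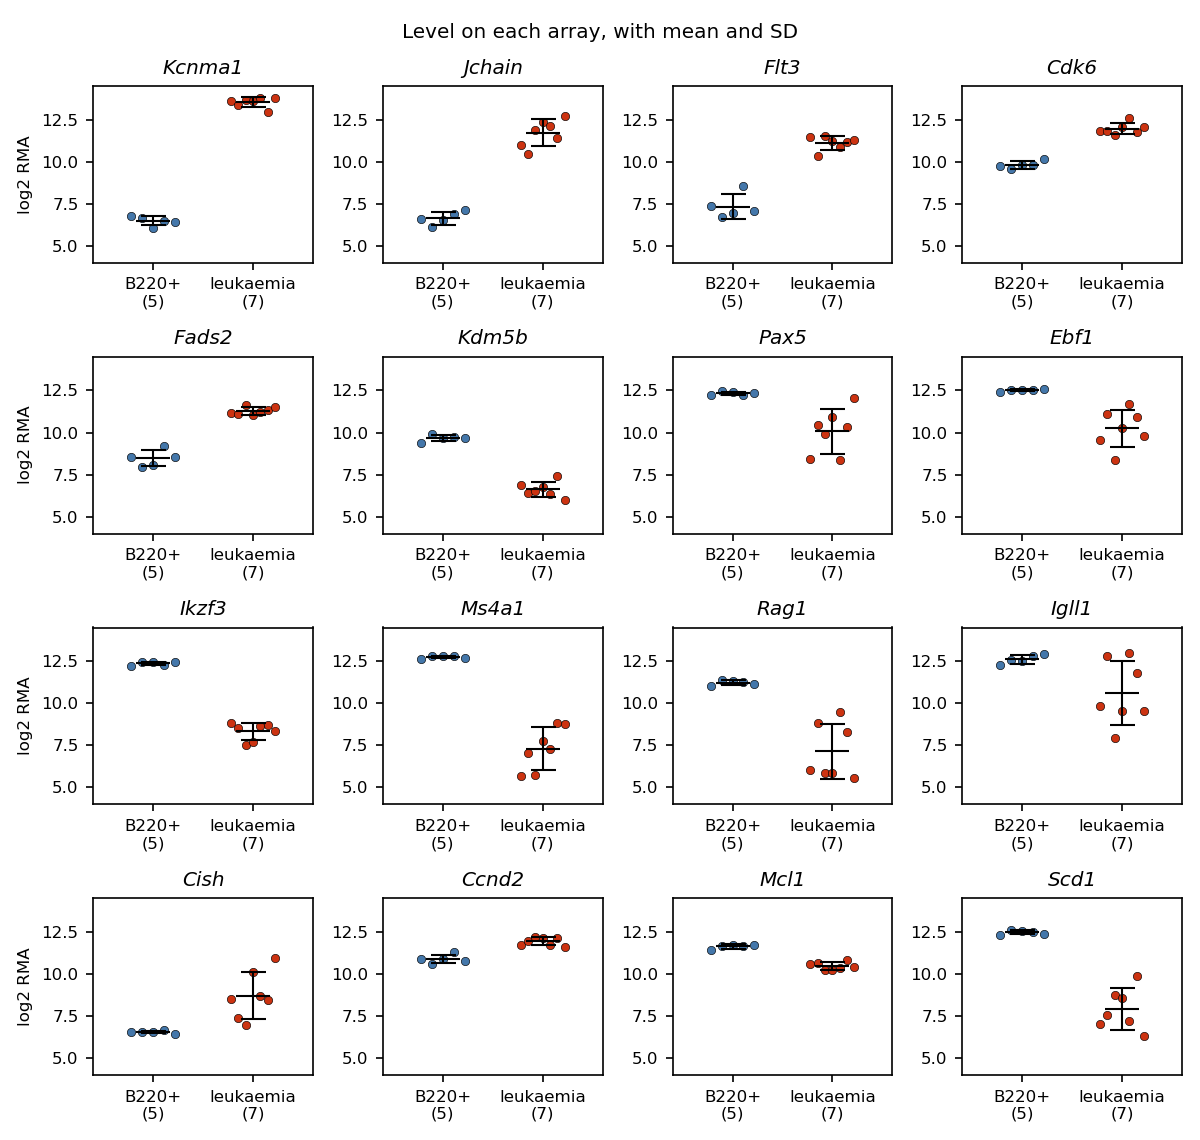
Log2 level of 16 genes on each array, with B220+ arrays (blue, n = 5) and leukaemias (red, n = 7) and bars for mean and SD; the y axis does not start at 0 because the scale is logarithmic. Kcnma1, Flt3, Cdk6 and Fads2 are high on all leukaemias, Ikzf3 and Kdm5b low on all, and Pax5, Rag1, Igll1 and Cish are spread over several log2 units.

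JAK-STAT5 signalling is a route that BCR-ABL keeps active, and a list of its components and reported targets changed in both directions. Of 21 measured members 4 rose and 6 fell, with a median of -0.10, and with sex as a covariate 2 rose and 2 fell. Cish, whose promoter is shown above, read 6.56, 6.55, 6.55, 6.68 and 6.46 in B220+ cells, and 8.49, 7.37, 6.98, 10.09, 8.69, 8.44 and 10.98 on leukaemias 1 to 7. All leukaemias were above all B220+ arrays, a rise of 2.16 ± 0.57 (adjusted p = 0.0117), and with sex as a covariate it was 1.34 and did not pass (adjusted p = 0.109). Socs2, a further feedback inhibitor, rose by 2.73 ± 0.60 (adjusted p = 0.00386), with leukaemia 2 (9.27) inside the B220+ range of 8.38 to 9.61 and the other 6 above it. Its 2 probe sets gave 1.67 and 2.73. Ccnd2, a D cyclin gene activated by STAT5, rose by 1.05 ± 0.19. Of the kinases that start the route, Jak2 (0.84) rose and Jak1 (-0.36) fell. The other falls were Bcl2l1 (-1.20), Il2ra (-1.17), Gadd45g (-1.14), Pim2 (-0.99) and Ccnd3 (-0.72). Socs3 (0.94), Socs1 (-0.43), Pim1 (-0.11), Stat5a (0.09) and Stat5b (0.44) did not pass.

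The ERK route gave 4 rises and 4 falls among 17 genes. Spry1, a feedback inhibitor of receptor kinases, read 7.07, 7.40, 7.35, 7.16 and 7.49 against 7.89 to 9.70 (median 8.70) and rose by 1.34 ± 0.28 (adjusted p = 0.00283). Dusp5, a phosphatase that shuts ERK off in the nucleus, fell by 1.53. Dusp6, its cytoplasmic counterpart, had -1.09 ± 0.60 (adjusted p = 0.18), with 6.85 on leukaemia 7 and 9.40 to 11.04 on the others. Myc read 8.92, 9.28, 9.19, 9.31 and 9.03 against 9.74 to 11.74 (median 10.65) and rose by 1.69 ± 0.38 with no overlap (adjusted p = 0.00503).

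Immediate early genes, which respond within minutes to signals and to handling of cells, were lower. Of 21 measured 14 fell and 0 rose, with a median of -1.34. Fosb read 9.11, 9.87, 10.09, 9.01 and 10.04 in B220+ cells and 6.67 to 7.44 (median 6.88) in leukaemias, a change of -2.65 ± 0.20 (adjusted p = 1.85e-06). Junb (-1.65), Jund (-2.06) and Egr3 (-1.34) fell as well. The controls were B220+ cells and the leukaemias tumour-bearing marrow with no sort named, so the way cells were obtained and the disease cannot be told apart for these genes. Klf6 (-0.17), Atf3 (0.08) and Dusp1 (-1.10) did not pass. Members of the NF-κB list, which shares stimuli with them, fell in 11 and rose in 4 of 19. Nfkbie (-1.48) and Tnfaip3 (-1.35), both feedback inhibitors, and Cd83 (-1.79) fell, and Ebi3, a cytokine subunit, rose by 2.38.

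Cell cycle genes were broadly higher, and the mitosis mean of every leukaemia lay above every B220+ array. Mitosis genes rose in 30 of 31 members, with 0 falling and a median of 1.28. The mean of that list on B220+ arrays 1 to 5 was 9.23, 8.32, 8.55, 8.94 and 9.21, and on leukaemias 9.90 to 10.30, so the leukaemias covered a narrower range than the controls. Bub1b read 8.89, 8.10, 8.46, 8.63 and 9.12 against 9.91 to 10.23 (median 10.13) and rose by 1.44 ± 0.15 (adjusted p = 2.04e-05). Kif2c, a kinesin that corrects spindle attachment, rose by 1.87 ± 0.21 (6.78 to 7.94 against 8.97 to 9.66), and Cenpf by 1.65 ± 0.17. Cenpa, the centromeric histone, was the exception (-0.13). The wild-type pro-B and pre-B arrays had a mean of 10.51 over the mitosis list, so the rise is a statement about B220+ cells as the control.

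Replication genes rose in 23 of 32 members, with 0 falling and a median of 0.70. Pole, the leading-strand polymerase, rose by 1.62 ± 0.17, Mcm6 by 1.43 ± 0.18 and Mcm3 by 1.00 ± 0.11. Mcm3 read 9.15, 9.01, 8.83, 9.11 and 9.35 in B220+ cells and 9.74 to 10.34 (median 10.18) in leukaemias. Pcna (0.17 ± 0.13), the polymerase clamp, did not pass, nor did Cdt1 (-0.35) and Cdc6 (0.52), which license origins. Genes of DNA repair rose in 18 of 23 members with 0 falling. Among them were the nuclease gene Dna2 (1.79 ± 0.18), Brca2 (1.42 ± 0.17), which loads the recombinase onto breaks, and the helicase gene Blm (1.32). Atm (0.24) and Chek2 (0.49) did not pass. On wild-type pro-B and pre-B arrays the list mean was 9.92 for replication, against 9.69 in leukaemias. For repair it was 8.94 against 8.75, so both rises are statements about B220+ cells as the control.

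The genes that control entry into the cycle changed in opposing directions. Of 23 cyclin, CDK and RB family genes 10 rose and 4 fell, with 2 falls without leukaemia 7 and B220+ array 1. Cdk6, the kinase partner of D cyclins, read 9.73, 9.57, 9.79, 9.79 and 10.16 in B220+ cells and 11.56 to 12.62 (median 11.82) in leukaemias, a rise of 2.16 ± 0.20 (adjusted p = 8.64e-06). Cdkn1b, the inhibitor p27, read 11.41, 11.64, 11.68, 11.54 and 11.59 against 10.04 to 10.77 (median 10.54) and fell by 1.12 ± 0.16 (adjusted p = 0.000163). The ranges of both genes were apart, though a dimmer Cdkn1b probe set changed by -0.68. Ccnd2 read 10.87, 10.61, 10.89, 11.32 and 10.76 against 11.62 to 12.19, while Ccnd1 rose by 2.76 ± 0.56 with leukaemia 7 (9.54) within the B220+ range. Cdc25a, the phosphatase that frees CDK2, rose by 0.96 and E2f3 by 0.92. E2f2 fell by 2.17 ± 0.48 and Rb1, the retinoblastoma gene, fell by 1.17 ± 0.33. Without leukaemia 7 and B220+ array 1 together Rb1 had -1.18 (adjusted p = 0.0506). Rbl2 (-0.08) and Cdk2 (0.05) did not pass.

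Survival genes of the BCL2 family changed in both directions, with 4 rises and 6 falls among 15, and 2 and 3 without leukaemia 7 and B220+ array 1. Mcl1, an inhibitor of apoptosis, read 11.42, 11.67, 11.71, 11.67 and 11.71 in B220+ cells and 10.21 to 10.82 (median 10.42) in leukaemias, a change of -1.17 ± 0.10 (adjusted p = 5.18e-06). Bcl2 read 9.61, 9.83, 9.56, 9.65 and 9.37 against 10.12 to 11.46 (median 10.85) and rose by 1.22 ± 0.34 (adjusted p = 0.0156). Without leukaemia 7 and B220+ array 1 together Bcl2 had 1.12 (adjusted p = 0.053). Its relative Bcl2l2 rose by 0.76, while another relative, Bcl2l1 (-1.20), fell. Bmf, which promotes death, fell by 1.26 ± 0.24, while Bcl2l11 (0.19), which encodes BIM, and Bbc3 (0.08) did not pass. Of 19 targets of p53, 6 rose and 4 fell. The median was 0.22. Ddit4 (1.51), an inhibitor of mTOR, and the death receptor gene Tnfrsf10b (0.88) were among the rises, while Plk2 (-1.97), Btg2 (-2.53), Trp53inp1 (-1.20) and Mdm2 (-0.66), the p53 ligase, fell.

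Genes of biosynthesis rose alongside those of the cycle. Of 30 genes of MYC and ribosome assembly 14 rose (9 without leukaemia 7 and B220+ array 1) and 2 fell, with Ncl (0.84), Npm1 (0.88), Nop58 (1.17 ± 0.17) and Utp20 (0.90) among the rises. Nucleotide synthesis gave 15 rises and 1 fall in 22 genes, with Tyms, thymidylate synthase, up by 1.71 ± 0.22 (7.67 to 8.87 against 9.66 to 10.52), Tk1 by 1.29, Ctps by 0.77 and Paics by 0.73. Dck, the kinase that salvages deoxycytidine, was the 1 fall (-1.16 ± 0.22). Rrm2, a ribonucleotide reductase subunit, had -0.02 ± 0.34 (adjusted p = 0.97). Of 11 genes of serine and folate metabolism 6 rose, among them Mthfd1 (1.34 ± 0.26), Shmt1 (1.22 ± 0.31) and Shmt2 (0.86). On wild-type pro-B and pre-B arrays the nucleotide synthesis mean was 9.71, against 9.75 in leukaemias. The mean was 9.11 against 9.45 for MYC and ribosome assembly, and 8.32 against 8.56 for serine and folate genes. Subunits of the proteasome rose in 14 of 24 by small amounts, from 0.32 to 0.83, and none fell. Cytoplasmic ribosomal proteins had a median of 0.11, which became -0.03 with median centring.

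Glucose genes rose in part. Of 23 measured 10 rose and 2 fell. Pdk1, which holds pyruvate back from mitochondria, read 7.65, 7.98, 8.0, 7.96 and 8.01 in B220+ cells and 8.94 to 9.79 (median 9.54) in leukaemias, a rise of 1.48 ± 0.19 (adjusted p = 8.48e-05). Its relative Pdk3 rose by 1.16, lactate dehydrogenase Ldha by 0.92 and Pgk1 by 0.92. In the pentose phosphate pathway 4 of 7 genes fell, Rpia (-1.20) among them, and Tkt (0.61) rose. With sex as a covariate 1 fell, and Pgls (adjusted p = 0.107) and Rpe (0.126) were among the calls lost. Hk1 (0.03), Aldoa (0.02) and Slc16a1 (-0.40) did not pass. Among 20 genes of a list on the control of energy supply by PAX5 and IKZF1, 4 rose and 7 fell. The list mixes genes reported to limit supply with genes of glucose uptake and insulin signalling. All 4 rises were of the latter kind, Slc2a3 (1.32), Slc2a6 (0.80), Hk2 (0.85) and Insr (0.58). The falls included Cnr2 (-3.03), a cannabinoid receptor of B cells. Genes of glucose uptake and insulin signalling were also among the falls, namely Slc2a1 (-0.67), Irs2 (-1.11), Akt1 (-0.37) and Akt2 (-0.37). Txnip (-0.37) and Nr3c1 (-0.05), reported to limit supply, did not pass. Oxidative phosphorylation rose in 15 and fell in 1 of 41 subunits, all by less than 1 log2 unit, and with sex as a covariate 9 rose.

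Fatty acid genes changed in both directions, with the largest changes at desaturases and an elongase. Of 18 measured 6 rose and 2 fell. Scd1, the desaturase that makes oleate, read 12.31, 12.59, 12.56, 12.49 and 12.39 in B220+ cells and 6.32 to 9.91 (median 7.58) in leukaemias, a change of -4.56 ± 0.59 (adjusted p = 0.000103). Fads2, the first desaturase of polyunsaturated chains, read 8.54, 7.96, 8.09, 9.19 and 8.57 against 11.05 to 11.61 (median 11.23) and rose by 2.81 ± 0.21 (adjusted p = 1.5e-06). No array of either group overlapped for these genes, and they moved in opposite directions. Fads1, which acts with FADS2, rose by 2.05 ± 0.14. Elovl7, an elongase, rose by 3.08 ± 0.36 from 5.55 to 6.04 in B220+ cells, with 10.30 on leukaemia 7 and 8.16 to 9.39 on the others. The synthesis genes Acaca (1.07) and Fasn (0.92) also rose, as did Acsl5 (0.90), while Acsl4 (-0.59) fell. Scd2 (-0.65), Srebf1 (-0.17) and Acly (-0.31) did not pass. In the cholesterol list 2 of 18 rose and 2 fell, a share called of 22.2% against 31.8% over all genes. Both falls, Hsd17b7 (-0.57) and Insig1 (-0.61), were lost with sex as a covariate (adjusted p = 0.179 and 0.349). Insig1 was also lost when any 1 of the 5 B220+ arrays or of leukaemias 1, 3, 4, 6 and 7 was left out (0.0511 to 0.0961), and Hsd17b7 without B220+ array 2, 3 or 4 (0.0531 to 0.0552). The rise of Sqle (1.06) was lost without B220+ array 1, 2, 3 or 5 or leukaemia 2 (0.0502 to 0.0643), and that of Idi1 (1.19) was not lost in this way.

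Among amino acid transporters 6 genes rose and 3 fell of 20, and with sex as a covariate, or without leukaemia 7 and B220+ array 1, 1 fell. Slc7a5, the leucine carrier, read 9.05, 9.27, 8.99, 9.46 and 9.35 against 10.85 to 12.21 (median 11.13) and rose by 2.04 ± 0.23 (adjusted p = 3.06e-05). Slc36a4 fell by 2.25 ± 0.30 with no overlap. Slc3a2 (0.20), the partner chain of SLC7A5, did not pass. Antioxidant genes rose in 12 and fell in 1 of 21. Txnrd1 rose by 1.00, Prdx1 by 0.82 and Gpx3, a secreted peroxidase, by 3.20 ± 0.42, from 5.46 to 5.62 in B220+ cells. Gpx3 was 6.78 on leukaemia 7 and 8.73 to 9.62 on the others and the macrophage mean was also lowest there, but the part of those cells in the rise was not tested.

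Chromatin genes fell more often than they rose, by amounts from -0.33 (Crebbp) to -3.06 (Kdm5b). Of 29 measured 4 rose and 13 fell, and with sex as a covariate 8 fell. Kdm5b, a demethylase of histone H3, read 9.39, 9.89, 9.69, 9.73 and 9.68 in B220+ cells and 5.98 to 7.39 (median 6.52) in leukaemias, a change of -3.06 ± 0.22 (adjusted p = 1.07e-06). Smarca4, the ATPase of the BAF remodeller, read 12.33, 12.45, 12.34, 12.28 and 12.49 against 10.61 to 11.29 (median 10.92) and fell by 1.42 ± 0.13 (adjusted p = 6.8e-06). Hdac5 fell by 1.53 ± 0.15. In these 3 genes every leukaemia was below every B220+ array. Dnmt1, which copies DNA methylation at replication, rose by 0.72. Dnmt3a (0.39), Tet2 (0.04) and Hdac3 (0.04) did not pass. Igf2bp3, an RNA-binding protein of fetal cells, read 5.97, 5.89, 5.98, 6.11 and 6.35 against 7.80 to 9.60 (median 9.19) and rose by 3.04 ± 0.26 (adjusted p = 3.99e-06). Lin28b (-0.09), Hmga2 (-0.18) and Igf2bp1 (-0.10), from the same list of fetal genes, did not pass.

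Protein folding and breakdown genes changed in both directions. Of 24 genes of the unfolded protein response 6 rose and 5 fell, with 3 rises without leukaemia 7 and B220+ array 1. Syvn1, the ubiquitin ligase that clears misfolded proteins from the endoplasmic reticulum, fell by 1.83 ± 0.16, and the co-chaperone Dnajb9 fell by 1.31 ± 0.16. The chaperones Dnajc3 (0.92) and Pdia3 (0.88) rose, while Hspa5 (0.11), the main chaperone of that compartment, did not pass. Of 24 lysosome and autophagy genes 8 rose and 6 fell. The protease gene Ctsd, abundant in macrophages, rose by 1.92, and Tfeb, the factor that switches on lysosome genes, fell by 1.37. The median of the lysosome list on leukaemia 7 was -0.03, against 0.14 over all leukaemias. Of 18 aminoacyl-tRNA synthetases 9 rose and 1 fell, with a median of 0.30.

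Of 24 receptors for homing and adhesion 4 rose and 5 fell, with 12.9% and 18.9% over all genes. Itgal (0.54) rose. The integrin chains Itgb1 (2.84-fold) and Itga5 (3.69-fold), which together bind fibronectin, rose, and the sphingosine receptor gene S1pr4 (-1.53) fell with S1pr1. Itga4 (0.24), which pairs with the same beta chain, Itgb2 (0.60), Itgb7 (-0.18), S1pr2 (0.15) and S1pr3 (0.37) did not pass. In the hypoxia list 8 of 20 rose and 4 fell, and with sex as a covariate 2 fell. Epas1, an oxygen-sensing factor that endothelium also expresses, rose by 2.87, while Kdm3a (-1.03) fell and Hif1a (-0.29) and Vegfa (0.74) did not pass.

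Other channel genes were split around Kcnma1, with 6 rises and 6 falls of 23. Kcnn4, an intermediate-conductance channel opened by calcium, read 7.95, 8.02, 7.97, 8.52 and 8.23 against 9.52 to 10.26 (median 10.04) and rose by 1.84 ± 0.16 (adjusted p = 5.03e-06). The leak channel gene Kcnk6 rose by 2.19 ± 0.19, also with no overlap. Itpr2 (-1.20 ± 0.11) and Itpr3 (-1.20 ± 0.20), which release calcium from stores, fell. Kcnmb1 (-0.14) and Kcnmb4 (0.13), subunits that adjust the KCNMA1 channel, did not pass.

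Serpins that inhibit granzymes rose in 6 of 8 members, with 0 falling. Serpinb9d read 4.59, 4.61, 4.68, 4.63 and 4.65 in B220+ cells and 6.63 to 11.50 (median 10.52) in leukaemias, a rise of 5.40 ± 0.67 (adjusted p = 7.49e-05). Leukaemia 4 was lowest. Serpinb9 rose by 2.18 ± 0.48, Serpinb6b by 2.56 ± 0.50 and Serpinb6a by 1.56 ± 0.27, and each was above the B220+ range on all 7 leukaemias. These are close paralogs, and whether their probe sets also bind RNA of neighbours was not tested. On leukaemia 7, with the lowest macrophage mean, Serpinb9d was at 10.88 and Serpinb6a at 9.35, its highest value.

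Of 20 checkpoint genes 7 rose and 4 fell, and with sex as a covariate 2 fell. Cd80, a ligand of CD28 and CTLA4, read 6.58, 6.80, 6.81, 6.82 and 6.35 against 7.61 to 10.60 (median 8.44) and rose by 2.29 ± 0.44 (adjusted p = 0.00175), with 1.37 at its other probe set. Pdcd1, which encodes PD-1, rose by 2.26 ± 0.63, with 10.97 on leukaemia 7 and 7.05 to 8.23 on the others, and its ligand gene Cd274 had 0.04 ± 0.37 (adjusted p = 0.945). Chemokine genes rose in 9 of 22. Cxcl9, which attracts T cells, rose by 4.80 ± 0.80 from 5.94 to 6.14 in B220+ cells to 10.79 to 12.92 on 6 leukaemias, and was 7.45 on leukaemia 7. Ifng (-0.14), whose product induces Cxcl9, did not pass. Interferon gamma response genes rose in 2 and fell in 2 of 19, a share called of 21.1% against 31.8% over all genes. Both falls, Psmb10 (-0.73) and Ido1 (-0.19), were lost with sex as a covariate (adjusted p = 0.0715 and 0.157), where 6 rose and 0 fell, and Ido1 was lost without B220+ array 1 (0.0659) or 5 (0.0507). In the type I interferon list 7 of 21 rose and 2 fell, but with sex as a covariate 0 rose. Both groups were uneven, with array means of 7.53 to 8.52 in B220+ cells and 7.64 to 9.27 in leukaemias.

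**Figure D3:**
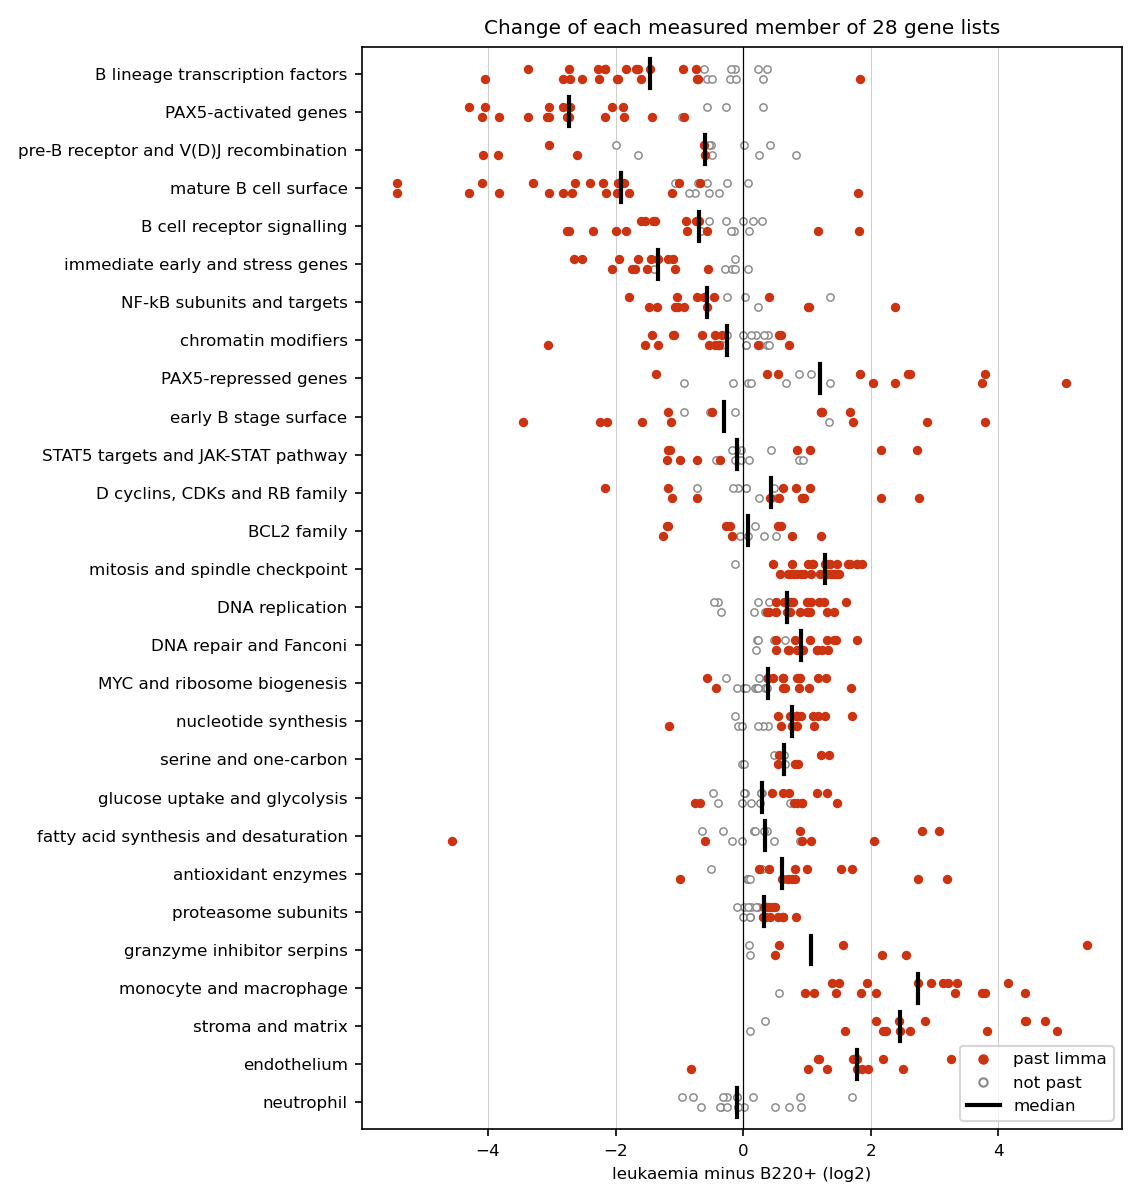
Each point is the log2 change of 1 measured gene, leukaemia minus B220+, for 28 gene lists; filled points passed limma, open points did not, and the bar is the list's median. B lineage lists lie left of 0, while mitosis, replication and repair lists lie right of 0, and Scd1 (-4.56) lies far from the rest of the fatty acid list.

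Markers of other marrow cells moved with the leukaemia group. Of 19 macrophage markers 18 rose, of 15 stroma and matrix markers 13, of 13 endothelial markers 12 (1 fell) and of 8 megakaryocyte markers 7 (4 with sex as a covariate). Log2 of the summed level of the macrophage markers was 13.14 to 14.79 in leukaemias against 11.73 to 12.05 in B220+ cells, and that of the stroma markers 11.83 to 14.38 against 10.13 to 10.27. Sparc, a matrix protein, read 6.31, 6.58, 6.26, 6.34 and 6.44 in B220+ cells and 9.65 to 12.21 (median 11.45) in leukaemias, a rise of 4.92 ± 0.36 (adjusted p = 1.15e-06). The adhesion gene Vcam1 (4.42 ± 0.61) rose, as did the complement inhibitor Serping1 (4.43 ± 0.48), the proteoglycan gene Bgn (4.73 ± 0.41) and the platelet chemokine Ppbp (4.66 ± 0.56). The metal-binding gene Mt2 rose by 4.38 ± 0.73. On leukaemia 7 the stroma mean was 7.27, against 8.82 to 9.57 on the other leukaemias. The controls were B220+ cells, which leaves such cells out, and the part of these cells in the other rises was not tested.

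Other marrow lineages were less uniform. Of 19 neutrophil markers 0 passed, with a median of -0.09 that became 0.40 without B220+ array 1 and 0.61, with 2 rises, without both that array and leukaemia 7. Their summed level ranged from 11.67 to 14.82 in leukaemias and 11.59 to 15.20 in B220+ cells. By limma 0 of 11 erythroid markers passed, though their median change was 0.96. Their array means were 7.17 to 10.96 in leukaemias, highest on leukaemia 6, against 7.71 to 8.02 in B220+ cells, and 5 leukaemias lay above that range and 1 below. T cell markers rose in 4 of 13, with a median of 1.06 and array means of 7.01 to 8.33 in leukaemias against 6.29 to 6.59 in B220+ cells. The 4 were Cd4 (1.80), Themis (1.68), Thy1 (1.69) and Cd3g (2.16 ± 0.63), with Cd3e (1.14 ± 0.45, adjusted p = 0.0718) not passing. With sex as a covariate Cd3g had 2.28 (adjusted p = 0.0548) and Thy1 had 1.23 (adjusted p = 0.12). Of 15 NK markers 2 rose, both lectin receptors: Klri1 (4.44 ± 0.64) and Klrd1 (2.58 ± 0.55). Ncr1, the defining NK receptor, had -1.30 ± 0.83 (adjusted p = 0.241) and was 5.41 to 5.81 on leukaemias 2, 4, 5, 6 and 7, where Klri1 read 7.66 to 12.03. Klri1 was therefore high on arrays where Ncr1 was near the bottom of the scale.

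**Figure D4:**
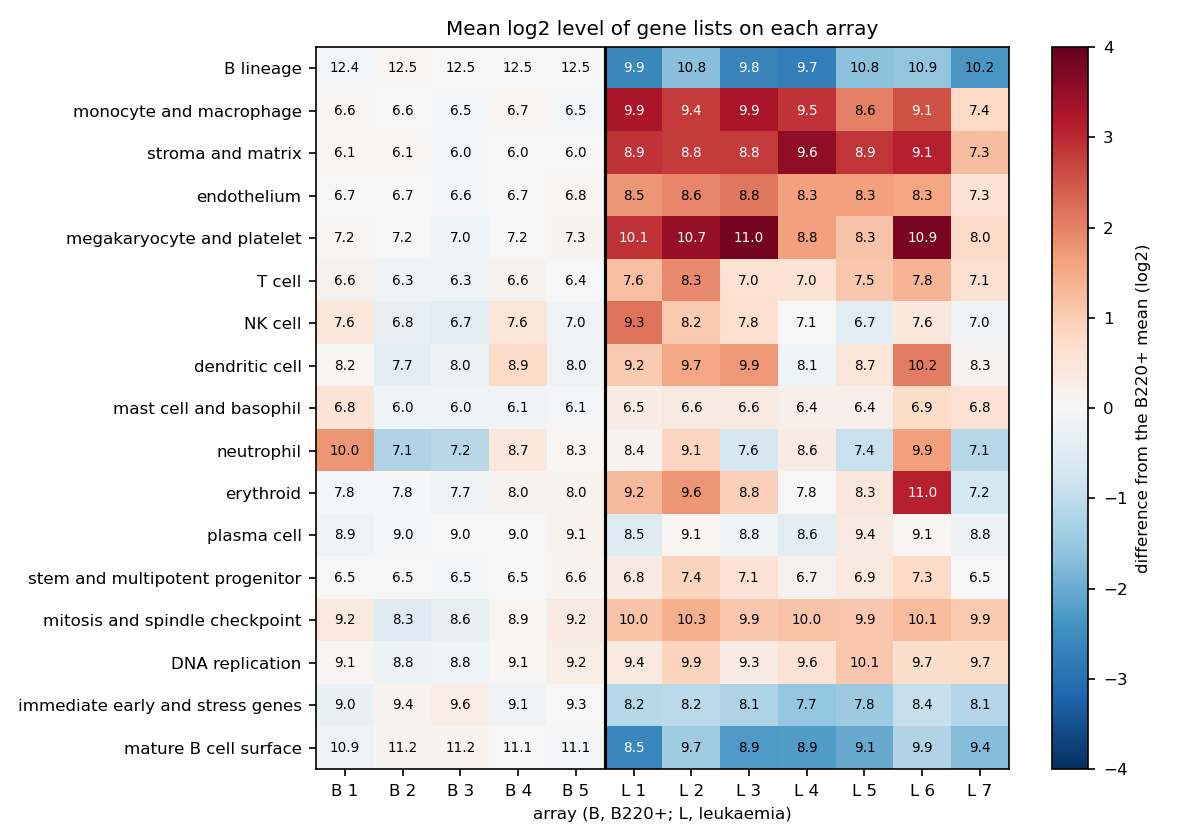
Mean log2 level of 17 gene lists on each array, printed in the cells, with colour for the difference from the mean of 5 B220+ arrays. Leukaemias L 1 to L 6 share high macrophage, stroma and endothelium means, which are lower on L 7 but above all B220+ arrays. Mitosis and replication means are high on all 7, and B220+ array B 1 has the highest neutrophil mean (10.03).

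Leukaemia 7, singled out after its values were seen, read lower for macrophage and stroma markers than the other leukaemias. Its means for both lists still lay above every B220+ array, and the medians over all leukaemias include it. Its difference from the B220+ mean had a list median of 0.30 for macrophage markers, against 2.74 over all leukaemias, and 0.73 for stroma, against 2.46. The medians on that array stayed close to the whole group for mitosis (1.17 against 1.28), replication (0.74 against 0.70), repair (0.92 against 0.91), PAX5-activated genes (-2.67 against -2.73) and PAX5-repressed genes (1.11 against 1.21). Other lists were apart on that array. For chemokines it had 0.05 against 1.27, for type I interferon genes -0.13 against 0.88 and for T cell markers -0.11 against 1.06. Mature B cell surface genes had -1.26 against -1.91, ERK genes -0.37 against 0.23, checkpoints 0.03 against 0.28, homing receptors 0.02 against 0.30 and antioxidants 0.36 against 0.61. Across genes called higher, leukaemia 7 was the lowest of the 7 arrays in 24.8%, against 5.02% to 20.7% for the others. The part of other cells in the changes this array shared with the group was not tested.

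Some genes differed widely between leukaemias, and a few of these were near the B220+ level on some arrays and far above it on others. Rnase12, a ribonuclease, read 5.76, 5.52, 5.44, 5.35 and 5.37 in B220+ cells, and 11.81, 11.71, 10.11, 12.28, 6.13, 8.33 and 11.11 on leukaemias 1 to 7. It passed (4.72 ± 0.90, adjusted p = 0.00163). Gria2, a glutamate receptor subunit of neurons, was at 9.75, 10.50, 11.28 and 11.23 on leukaemias 1, 3, 4 and 7 and at 4.74 to 4.95 on the other 3, the level of the B220+ cells (4.70 to 4.85). Cdh17, a cadherin, was at 12.20, 9.06 and 11.56 on leukaemias 2, 3 and 6 and at 5.45 to 6.29 on the others. Neither Gria2 (3.39 ± 1.27, adjusted p = 0.0584) nor Cdh17 (2.39 ± 1.21, adjusted p = 0.146) passed.

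Mrgpra1, a receptor known from sensory neurons, read 5.20 to 5.37 in B220+ cells and 5.81, 5.94, 9.23, 12.38, 11.30, 7.50 and 11.40 on leukaemias 1 to 7. It passed (3.81 ± 1.09, adjusted p = 0.0186), as did the interferon-inducible gene Ifi205 (3.17 ± 0.93, adjusted p = 0.02), at 11.13 and 11.47 on leukaemias 2 and 6. With sex as a covariate neither passed (adjusted p = 0.0734 for Mrgpra1 and 0.0591 for Ifi205), and without leukaemia 7 and B220+ array 1 together Mrgpra1 had 3.45 (adjusted p = 0.0591). Slc17a8, a glutamate transporter, passed (2.83 ± 0.93, adjusted p = 0.0348) but not without any 1 of the B220+ arrays or of leukaemias 1, 4, 5 and 7 (adjusted p = 0.0556 to 0.0688), nor with sex as a covariate (0.18). Cd209a and Ccr9, known from dendritic cells and lymphoid homing, varied in both groups and did not pass. H2-Ea, an MHC class II chain gene that some mouse strains do not transcribe, was at 11.50 to 13.04 on leukaemias 1, 2, 3, 4 and 7 and 6.32 and 6.36 on leukaemias 5 and 6. In B220+ cells it was 12.76, 12.87 and 12.78 on arrays 1, 2 and 4 and 6.55 and 6.48 on arrays 3 and 5. Both levels occurred in both groups, and the part of strain background was not tested.

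**Figure D5:**
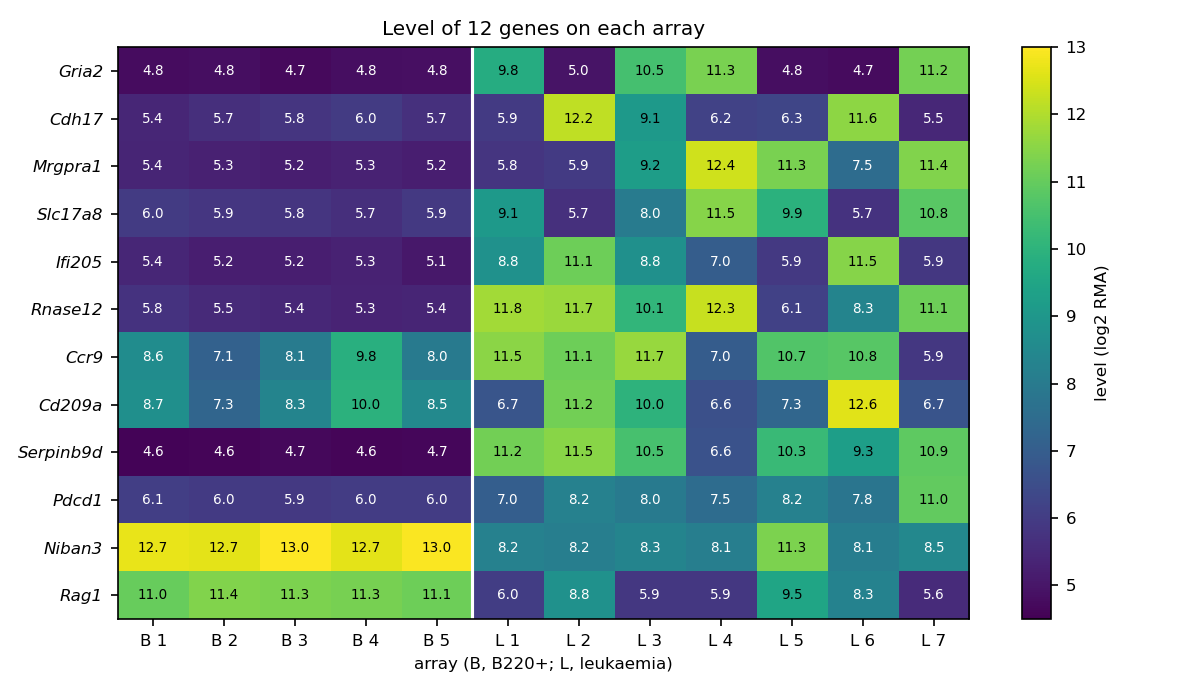
Log2 level of 12 genes on each array, printed in the cells and shown by colour (dark, low; bright, high). Gria2 is high on L 1, L 3, L 4 and L 7, Cdh17 on L 2, L 3 and L 6, and Niban3 is low on all leukaemias except L 5.

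Pax5 level was set against 6 array means across the 7 leukaemias. Pearson's r was -0.499 for macrophage markers (exact permutation p = 0.253; Spearman's rho -0.321, p = 0.498) and 0.452 for mature B cell surface genes (exact p = 0.313; rho 0.393, p = 0.396). For stroma markers r was -0.472 (exact p = 0.334; rho -0.214, p = 0.662), for T cell markers -0.283 (exact p = 0.535; rho -0.214, p = 0.662), for B lineage markers without Pax5 and Ebf1 -0.156 (exact p = 0.718; rho -0.071, p = 0.906) and for mitosis genes 0.075 (exact p = 0.892; rho 0.107, p = 0.84). After Benjamini-Hochberg adjustment over the 6 relations the p-values for r were 0.668 to 0.892 and those for rho 0.906. Without leukaemias 1 and 5, the arrays farthest from the median of Pax5, r was -0.911 for macrophage markers and 0.01 for mature B cell genes. With 5 arrays left this is a description, and it rests in part on leukaemia 7, which had the highest Pax5 and the lowest macrophage mean.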

How the data were processed

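Affymetrix mouse gene arrays measured total RNA from marrow, with a separate mouse for each array compared, per the series design. The deposited values are log2 RMA levels made by the authors with the oligo package, per the submitters' processing notes, with versions not given in the sources used here. They ran from 3.80 to 14.31, and the number of arrays limits the precision. RMA puts all arrays on 1 distribution, so a change in total RNA per cell is not visible.

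Of 35556 probe sets, 21789 had 1 gene symbol in the platform annotation, 1621 several and 12146 none, and 21698 matched RefSeq (GRCm38.p6) by gene identifier. For each of 19938 genes the probe set with the highest mean over 24 arrays was kept; 999 genes had more than 1. The 7 heterozygous leukaemias were compared with 5 B220+ arrays in limma 3.58.1 (R 4.3.3; lmFit, eBayes) on 14 arrays, those plus 2 leukaemias with both Pax5 copies, with Benjamini-Hochberg adjustment over all genes, two-sided. A gene passed at an adjusted p below 0.05. The script was tested on simulated data. Errors are SE of the log2 change.

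Genes were named by rule: the largest changes, the smallest adjusted p, the most variable across leukaemias, and up to 4 members per list with the smallest adjusted p, with members that define a list or did not pass. Some further members were chosen after their values were seen. The largest changes were taken only from called genes whose arrays did not overlap between the groups. Antigen receptor segments, olfactory and vomeronasal receptors and unnamed gene models were left out of the rules that did not draw on lists. The members and the 59 gene lists (1175 of 1284 genes measured) were chosen with earlier results of these data known. Leukaemias and controls numbered 1 to 5 are titled biological replicates. Their deviations from the group means correlated between -0.137 and 0.197, so the numbers were not treated as pairs. Alternatives were other scalings, other sets of arrays, array weights, a mean-dependent prior spread, a filter on dim genes, the mean of all probe sets, a replicate block, sex as a covariate, a minimum change, and leaving out each array. Sex was read from Xist and 4 Y-linked genes. Promoters came from the RefSeq table.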

Additional observations from a re-analysis of the deposited data

Results flagged for a closer look

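In 116 sets of values (named genes and list means within a group), 13 held 1 array far from the rest. Chance gives about 1 in 20, but the sets overlap and the difference was not tested. For example, Sparc, Bgn and Serping1 belong to the stroma and matrix list, whose mean is also counted. Leukaemia 7 accounted for 6 of the 13, all low. Sparc was 9.65 there, against 11.19 to 12.21 on the other leukaemias, Cxcl9 was 7.45 against 10.79 to 12.92, Bgn 8.89 against 10.54 to 11.50 and Serping1 8.22 against 10.02 to 11.10. The stroma and matrix mean was 7.27 against 8.82 to 9.57, and the endothelium mean 7.28 against 8.26 to 8.81. Both lists are of cells other than B cells, but leukaemia 7 was not lowest for every such list. Its macrophage, neutrophil, erythroid and megakaryocyte means were also the lowest among leukaemias. Its T cell (7.07), NK cell (6.99), dendritic cell (8.31) and mast cell (6.80) means were not. A difference in cell content was not tested.

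In other leukaemias, Fcmr was 8.76 on leukaemia 6 against 5.90 to 7.03, and Niban3 was 11.31 on leukaemia 5 against 8.11 to 8.46. Both are B cell genes that were kept in part on 1 array.

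Among the controls, B220+ array 4 had Klri1 at 6.89 against 5.85 to 6.11 and Mt2 at 6.74 against 6.49 to 6.52. On B220+ array 1 Klhl14 was 9.88 against 10.25 to 10.35, and the mast cell and basophil mean was 6.76 against 6.03 to 6.14. The stem and multipotent progenitor mean was 6.61 on B220+ array 5 against 6.47 to 6.48. The deviations of Klhl14, Mt2 and the stem cell mean were under 0.5 log2 units.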

How the results depend on the processing

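Of 259 named genes past the threshold, 159 kept their direction and call under every setting they entered. The other 100 lost the call under at least 1, 20 of them with sex as a covariate. The stricter test for a change above 0.5 log2 units by itself had 100 calls lost or reversed. Sex as a covariate had 21, and every other setting had fewer. Centring each array on its median gave 12413 called genes, 10381 of them lower; sex as a covariate gave 2396 lower and 4346 in all. Requiring a change above 0.5 log2 units gave 1098 called genes (590 higher, 508 lower), of which 961 changed by at least 1 (549 higher). Leaving out 1 array gave 4816 to 6205 called genes, 2044 to 2580 higher and 2772 to 3720 lower. The replicate block gave 5006 called genes (2338 higher, 2668 lower), and 1 of 5 leukaemias correlated best with the control of its own number, so the pairing was not established. Xist turned to 0.49 with sex as a covariate (adjusted p = 0.00354), because that covariate is defined by Xist. The share of higher calls was 35.5% after quantile normalization. Leaving out leukaemia 7 and B220+ array 1 together, chosen after seeing the data, gave 5409. Levels near the bottom of the scale understate changes.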
